A study of Mus musculus with 6 samples.

Results

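The genes described here are 10 genes used to recognise group 2 innate lymphoid cells (ILC2): Il1rl1, Gata3, Areg, Il5, Il13, Il7r, Rora, Il17rb, Klrg1 and Il2ra. They were taken by name from the 57010 genes of the count table, and all 10 were found. The libraries came from leukocytes (CD45-positive) that lacked the T cell antigen CD90.2, sorted from hearts of mice labelled Ova DTG. All of these mice had been given naive OTI cells, CD8 T cells whose antigen receptor recognises ovalbumin. Of the 6 libraries, 3 were labelled OTI + ICI (immune checkpoint inhibitors: antibodies to CTLA-4 and PD-1 at 200 µg each, given intraperitoneally) and 3 OTI + Isotype (control antibody). The sources used here do not give what DTG stands for, the promoter of any transgene, the dose of control antibody, the age of the mice or the time of sampling. By their titles the libraries of a group are biological replicates 1 to 3, and both groups carry the word myocarditis. Groups are named by these labels throughout, and every direction below rests on them.

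ILC2 are tissue lymphocytes without antigen receptors. Damaged epithelium and stroma release the alarmins IL-33, TSLP and IL-25, which ILC2 sense through ST2 (encoded by Il1rl1), the TSLP receptor and IL-17RB. The transcription factors GATA3 and RORα set up the lineage, IL-7 and IL-2 keep it alive, and activated cells secrete IL-5, IL-13 and the growth factor amphiregulin, which act on eosinophils, macrophages and stroma. None of these genes belongs to ILC2 alone: mast cells and regulatory T cells also make ST2, T cells make Gata3 and Il7r, and NK cells make Klrg1.

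Some genes used to recognise ILC2 were at or near 0 counts in these libraries, while others, given below, were not. Il13 had 0 counts in every library, which over the 152972664 counts of all 6 libraries allows up to 0.0196 CPM (counts per 1e6 counts of the library). Il5 had 3 counts, all in ICI replicate 3. Nmur1, the neuromedin U receptor of ILC2, had 1 count in all 6 libraries, in isotype replicate 1. Thy1, which encodes the CD90 that the sort selected against and that mouse ILC2 commonly carry, had between 0 and 2 counts per library. Ptprc, which encodes CD45, was at 1300.4 ± 107 CPM in ICI libraries and 1012 ± 58.8 CPM in isotype libraries (SD, n = 3 each, here and below). The levels below are those of genes named after ILC2 in a mixed leukocyte sort, and no cell type is assigned to them. In such bulk libraries, more cells of a type and more RNA per cell cannot be told apart.

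**Figure D1:**
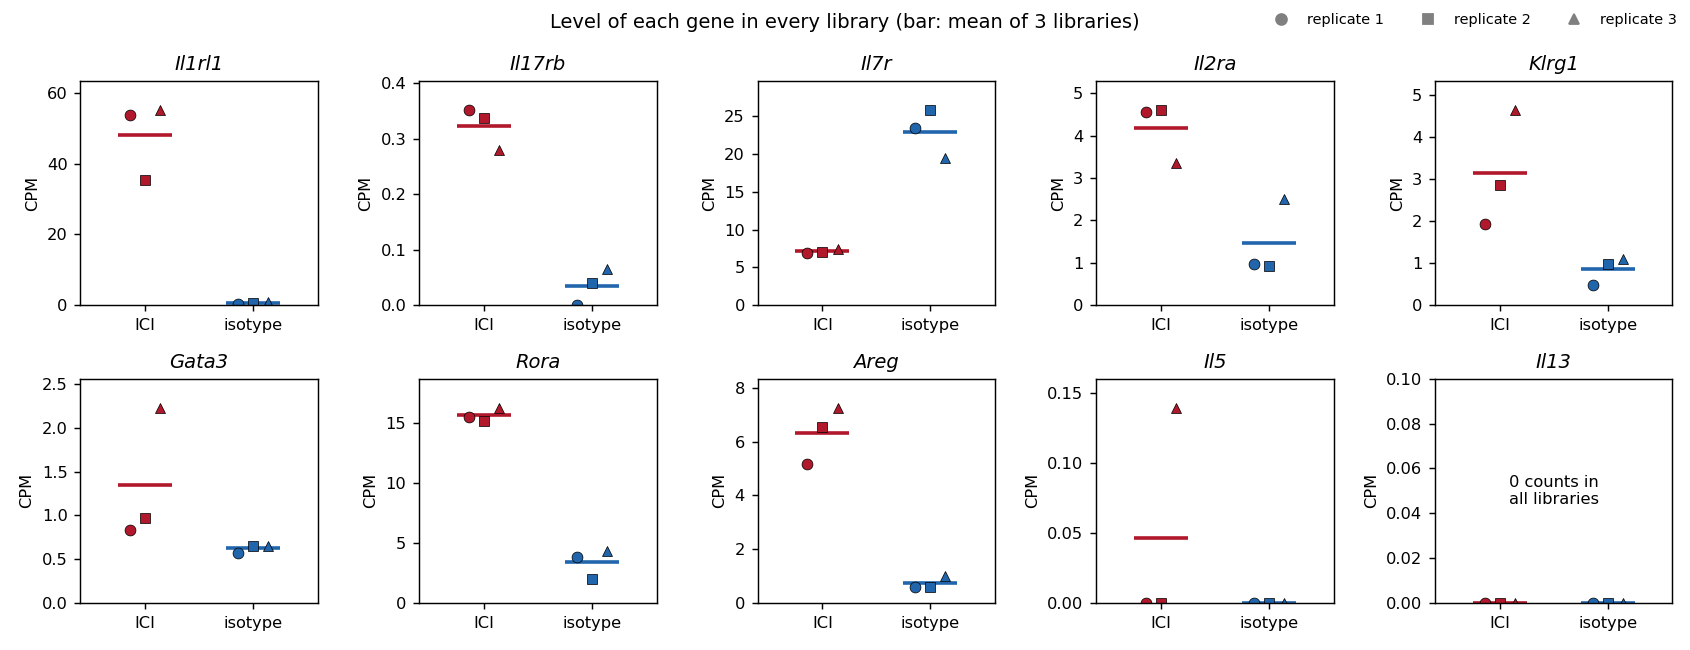
Level of each of the 10 genes in CPM (linear axis) in the 3 ICI and the 3 isotype libraries; symbols mark the replicate and bars the group mean. Il1rl1 lay between 35.3 and 55.0 CPM in ICI libraries and under 1 CPM in isotype libraries, Il7r was the only tested gene higher in isotype libraries, and Il13 had no counts.

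Of the 10 genes, 7 had enough counts to be tested. In the test of ICI against isotype libraries (edgeR quasi-likelihood test, Benjamini-Hochberg adjustment over the 14575 genes tested, called at an adjusted p under 0.05), 5 were called higher in ICI libraries, 1 was called lower and 1 was not called. Across all genes tested 35.0% were called higher and 33.9% lower, 68.9% in all, so a call by itself does not set these genes apart. For all 7 the lowest library of one group lay above the highest of the other, as it did for 73.5% of all genes tested. Their median log2 fold change was 1.67, and that of all genes tested 0.03. Il5, Il13 and Il17rb fell below the filter on low counts.

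Among the receptors, Il1rl1 (ENSMUSG00000026069), which encodes the IL-33 receptor chain ST2, differed most. It had 53.8, 35.3 and 55.0 CPM in ICI replicates 1, 2 and 3 and 0.203, 0.487 and 0.781 CPM in isotype replicates 1, 2 and 3. The isotype values rest on 6, 12 and 24 counts, against 1226, 836 and 1185 counts in the ICI libraries. The lowest ICI library was thus far above the highest isotype library. The fitted difference was 83.8-fold (6.39 ± 0.33 as log2 fold change ± SE, edgeR adjusted p = 1.96e-06). A rise at least as large was found in 163 of the 14575 genes tested (1.12%), Il1rl1 included. Leaving out each library in turn gave 63.6-fold to 120-fold. The counts pool the membrane form of ST2 with its soluble decoy form, which comes from the same gene by alternative RNA processing.

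Il1rl1 has 2 RefSeq starts. The upstream promoter is known from mast cells and other blood cells and the downstream one from fibroblasts, and the gene counts do not separate them. The 250 bases before each start are shown because this gene had the highest fold of the 10, beside the same stretch of Areg, of Il7r, which went the other way, and of Il13, which had no counts (RefSeq, GRCm38.p6, an older build than that of the counts, 5′ to 3′ on the gene's strand). Capitals mark matches on either strand to a GATA word (AGATAA, also with T as its first or G as its last letter), to the CRE TGACGTCA, to the STAT word TTCNNNGAA or to the AP-1 word TGANTCA; no 2 matches overlap.
Il1rl1 upstream start, chr1:40429320-40429569, plus strand: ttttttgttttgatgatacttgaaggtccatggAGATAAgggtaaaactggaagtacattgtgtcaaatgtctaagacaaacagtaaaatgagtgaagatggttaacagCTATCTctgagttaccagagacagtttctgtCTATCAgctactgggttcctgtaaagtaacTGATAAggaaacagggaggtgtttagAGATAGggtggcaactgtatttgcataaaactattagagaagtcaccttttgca
Il1rl1 downstream start, chr1:40439379-40439628, plus strand: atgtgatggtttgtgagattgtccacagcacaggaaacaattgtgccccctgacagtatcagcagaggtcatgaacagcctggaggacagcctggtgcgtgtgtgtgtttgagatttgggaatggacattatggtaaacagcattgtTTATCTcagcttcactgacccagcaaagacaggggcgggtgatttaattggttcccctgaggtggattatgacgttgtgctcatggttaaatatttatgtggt
Areg, chr5:91139349-91139598, plus strand: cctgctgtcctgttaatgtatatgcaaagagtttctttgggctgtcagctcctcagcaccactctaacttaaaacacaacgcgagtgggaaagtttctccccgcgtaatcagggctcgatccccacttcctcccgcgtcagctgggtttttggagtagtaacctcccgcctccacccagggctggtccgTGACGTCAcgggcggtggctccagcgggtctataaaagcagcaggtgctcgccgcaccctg
Il7r, chr15:9529877-9530126, minus strand: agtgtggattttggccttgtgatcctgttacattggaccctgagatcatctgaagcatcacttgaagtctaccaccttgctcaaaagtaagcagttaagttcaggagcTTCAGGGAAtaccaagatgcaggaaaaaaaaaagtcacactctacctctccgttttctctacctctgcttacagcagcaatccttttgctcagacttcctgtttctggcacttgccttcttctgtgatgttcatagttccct
Il13, chr11:53634703-53634952, minus strand: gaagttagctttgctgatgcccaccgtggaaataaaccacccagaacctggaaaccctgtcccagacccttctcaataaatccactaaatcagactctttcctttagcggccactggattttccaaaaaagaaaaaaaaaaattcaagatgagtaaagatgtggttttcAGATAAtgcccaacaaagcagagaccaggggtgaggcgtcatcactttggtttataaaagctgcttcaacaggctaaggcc
The upstream Il1rl1 window held 5 GATA matches and the downstream window 1. At least 1 such match stood in 26.5% of the 32851 windows of the same length in the table, and 5 or more in 0.0426%. The Areg window held 1 TGACGTCA, a word found in 1.55% of windows, between 61 and 54 bases before the start. The Il7r window held 1 TTCNNNGAA (7.02% of windows) and the Il13 window 1 GATA match. Of the 10 genes, all but Klrg1 were in the table (9 genes, 10 windows). GATA matches also stood in the windows of Il5 and Rora, 1 each. The windows of Gata3 and Il2ra held none of the 4 motifs, and that of Il17rb held 1 TGANTCA (6.75% of windows). A match is a stretch of letters and not a measured binding site.

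Il7r (ENSMUSG00000003882), the IL-7 receptor chain of lymphocytes that also forms part of the TSLP receptor, was the only one of the tested genes called lower in ICI libraries. Its level was 6.93, 7.04 and 7.39 CPM in the ICI libraries and 23.4, 25.8 and 19.5 CPM in the isotype libraries. The groups stood apart and the ICI libraries were nearly level with each other. The fitted difference was 3.70-fold lower (log2 fold change -1.89, SE 0.14, edgeR adjusted p = 2.06e-06), in a range of 3.21-fold to 4.07-fold over all other settings tried.

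Il2ra (ENSMUSG00000026770), the high-affinity IL-2 receptor chain CD25, was at 4.56, 4.60 and 3.34 CPM in ICI libraries and at 0.982, 0.933 and 2.51 CPM in isotype libraries. Isotype replicate 3 was the highest isotype library and came closest to the ICI libraries. The gene was 2.42-fold higher in ICI libraries (log2 fold change 1.28, SE 0.35, edgeR adjusted p = 0.00905). Without isotype replicate 3 the fold was 3.69, and without replicate 3 of both groups 4.14. Klrg1 (ENSMUSG00000030114), an inhibitory receptor of mature NK, T and innate lymphoid cells, had 1.93, 2.87 and 4.65 CPM in ICI libraries against 0.474, 0.973 and 1.11 CPM in isotype libraries. Its spread among ICI libraries was wide, with replicate 3 on top, but the groups did not overlap. It was 3.19-fold higher (log2 fold change 1.67, SE 0.39, edgeR adjusted p = 0.00339).

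Il17rb (ENSMUSG00000015966), the receptor for IL-25, was close to the floor of detection. It had 8, 8 and 6 counts in the ICI libraries and 0, 1 and 2 counts in the isotype libraries. The ratio of pooled counts, scaled to library totals, was 9.16 (exact 95% binomial interval 2.75 to 47.8, counting error only). Without the filter on low counts edgeR gave it an adjusted p of 0.00824.

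Of the transcription factors, Rora (ENSMUSG00000032238), which encodes RORα, had the evenest values in ICI libraries. They were 15.5, 15.1 and 16.2 CPM, against 3.86, 2.03 and 4.29 CPM in isotype libraries. Every ICI library was above every isotype library, and the fitted difference was 3.95-fold (log2 fold change 1.98, SE 0.21, edgeR adjusted p = 2.63e-05). Gata3 (ENSMUSG00000015619), the master regulator of type 2 lymphocytes, was not called. It had 0.834, 0.970 and 2.23 CPM in ICI libraries and 0.575, 0.649 and 0.651 CPM in isotype libraries, that is 19, 23 and 48 counts against 17, 16 and 20. Replicate 3 stood above the other ICI libraries. The log2 fold change of Gata3 was 0.88 (SE 0.41, edgeR adjusted p = 0.0799), and 0.36 without ICI replicate 3 (adjusted p = 0.395). It passed the threshold without ICI replicate 1 (adjusted p = 0.0420), with upper-quartile factors (0.0416), with library totals alone (0.0434) and with a term for the libraries rich in Xist (0.0479), within a range of 0.0416 to 0.450 over all settings.

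The effector genes were represented by Areg alone. Areg (ENSMUSG00000029378), which encodes the epidermal growth factor receptor ligand amphiregulin, had 5.18, 6.54 and 7.25 CPM in ICI libraries and 0.575, 0.608 and 1.01 CPM in isotype libraries. The groups were far apart in relation to their spread, 7.38-fold by the fit (2.88 ± 0.26 as log2 fold change ± SE, edgeR adjusted p = 6.42e-06). Il5 and Il13, the cytokines of eosinophil growth and of mucus and alternative macrophage activation, gave no comparison: 3 counts of Il5 against 0 is at the floor of 3 counts per group, and Il13 had none. For the isotype group 0 counts allow up to 0.0353 CPM, and for the ICI group up to 0.0441 CPM. Il4, which encodes the cytokine that shares a receptor with IL-13 and which is also made by basophils and mast cells, named after its values were seen, had 14, 5 and 11 counts in ICI libraries and 0, 0 and 3 in isotype libraries (ratio 12.5, exact 95% binomial interval 3.88 to 63.9, counting error only).

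**Figure D2:**
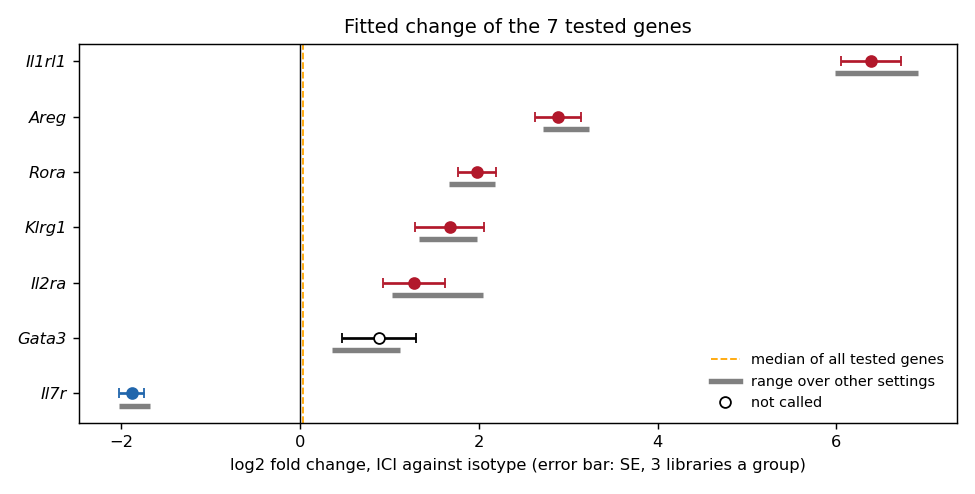
Fitted log2 fold change (ICI against isotype, x axis) of the 7 tested genes with SE; filled points were called, the open point was not, and grey bars give the range over the other settings tried. Il1rl1 stands at 6.39, Areg at 2.88 and Il7r at -1.89, and no grey bar crosses 0.

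Per kilobase of summed exon length, the order of the genes differed between the groups. In ICI libraries Il1rl1 (6.97 CPM per kb, range 5.11 to 7.98) and Areg (5.20, range 4.26 to 5.96) led and overlapped with each other. Klrg1 (2.23, range 1.37 to 3.29) and Il7r (1.53, range 1.49 to 1.58) followed and also overlapped. Rora (1.19), Il2ra (0.730) and Gata3 (0.338) came next in separate ranges, and Il17rb was at 0.0870 CPM per kb. In isotype libraries Il7r led at 4.90 CPM per kb (range 4.18 to 5.52). Areg and Klrg1 lay together at 0.601 and 0.602, as did Rora and Il2ra at 0.260 and 0.258. Gata3 followed at 0.157, in a range that touched those of Rora and Il2ra, and Il1rl1 at 0.0711 CPM per kb, so that the gene with the highest level in ICI libraries stood near the bottom in isotype libraries. Rora makes several transcripts, and summed exon length, 13071 bases for this gene, can understate its level.

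The other genes known from ILC2 were read from a list of 20 that does not include the 10. Counts of calls in this list and the later ones stand beside 35.0% called higher and 33.9% lower over all genes tested. Of its 13 tested genes 10 were called higher in ICI libraries, 2 lower and 1 not (10 to 11 higher and 2 lower when any library was left out), with a median log2 fold change of 1.70 against 0.03 for all genes tested. With the strict filter 5 were left to test, 3 called higher and 2 lower. Nfil3, a transcription factor needed by innate lymphoid progenitors, fell 2.56-fold (121 ± 9.80 against 271 ± 10.1 CPM, edgeR adjusted p = 1.39e-06). Id2, the inhibitor that marks innate lymphoid cells but is widely made, fell 1.41-fold (edgeR adjusted p = 0.000352) and was not called against a 1.5-fold change. The heparan sulfotransferase gene Hs3st1 rose 22.4-fold (edgeR adjusted p = 0.000393; 53.3-fold without isotype replicate 3) and the chemokine receptor gene Ccr8 11.0-fold (edgeR adjusted p = 0.000601). The interleukin-9 receptor gene Il9r, named after its values were seen, had 29, 58 and 176 counts in ICI libraries and 0, 0 and 3 in isotype libraries, with a ratio of pooled counts of 109 (exact 95% binomial interval 37.0 to 534, counting error only). Its fitted 84.9-fold rise (edgeR adjusted p = 0.000626) was 41.8-fold without ICI replicate 3 and 709-fold without isotype replicate 3, where the call was lost (adjusted p = 0.0671). Il9 and Csf2, cytokine genes of activated ILC2, had 0 counts in every library.

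**Figure D3:**
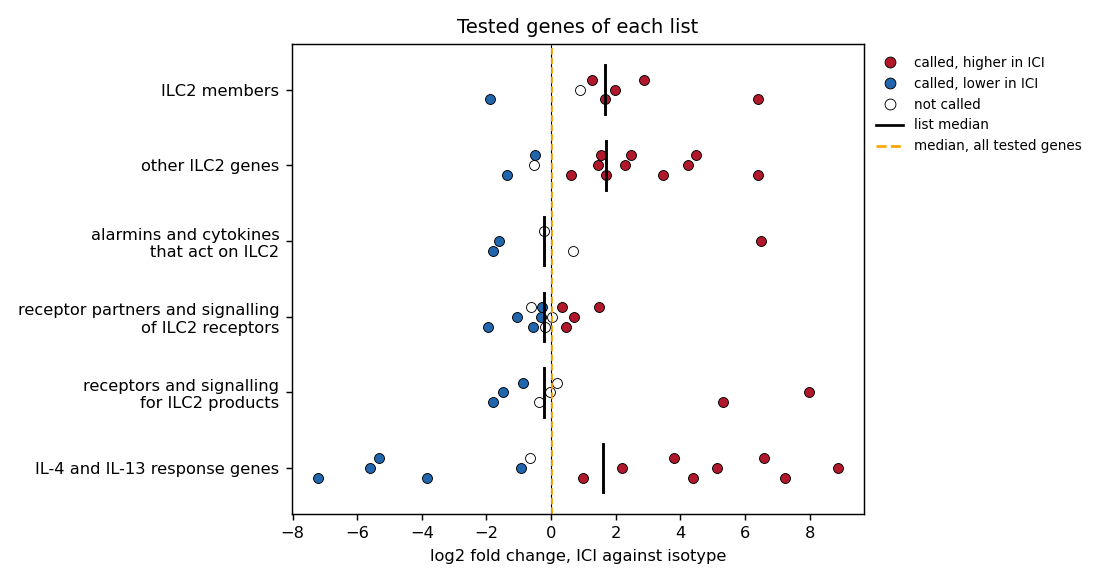
Log2 fold change (ICI against isotype, x axis) of every tested gene in 6 gene lists; colour gives the call, black bars the list medians and the dashed line the median of all genes tested. The 10 genes and the other ILC2 genes have medians of 1.67 and 1.70, while the lists of alarmins and of signalling genes have medians just under 0.

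Among 7 cytokines that act on ILC2, 1 was called higher, 2 lower and 2 not, and 2 were below the filter. Tslp, the epithelial alarmin, had 131, 127 and 108 counts in ICI libraries and 0, 1 and 3 in isotype libraries. It rose 90.7-fold (edgeR adjusted p = 2.01e-07; 197-fold without isotype replicate 3; ratio of pooled counts 114, exact 95% binomial interval 44.2 to 422, counting error only). Il33, the ligand of ST2, had 22, 18 and 11 counts in ICI libraries and 5, 7 and 23 in isotype libraries (0.745 ± 0.227 and 0.400 ± 0.307 CPM). The groups overlapped through isotype replicate 3, and the gene was not called (1.58-fold, edgeR adjusted p = 0.276). That library decided the call: without it Il33 was 2.83-fold higher in ICI libraries (adjusted p = 0.0399), and without replicate 3 of both groups 3.33-fold (adjusted p = 0.0175). Il25 had 0 counts in every library. Il7, the ligand of the receptor encoded by Il7r, fell 3.04-fold (0.528 ± 0.152 against 1.40 ± 0.253 CPM, edgeR adjusted p = 0.00157), and Tnfsf15, the TNF family member TL1A, fell 3.46-fold (edgeR adjusted p = 0.00246). Il18 was at 17.5 ± 1.22 and 17.9 ± 1.83 CPM and was not called (edgeR adjusted p = 0.0995). Beside these levels, fibroblast markers summed to 62.4 to 197 CPM in ICI libraries and 10.7 to 14.5 CPM in isotype libraries, and cardiomyocyte markers to 32.2 to 40.3 CPM against 4.75 to 12.0 CPM, although the sort was for leukocytes. The part of such cells in the Tslp and Il33 levels was not tested.

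Of 12 receptor partners and signalling genes, 4 were called higher, 5 lower and 3 not, with a median log2 fold change of -0.23. Against a 1.5-fold change 1 was called higher and 2 lower, and leaving out 1 library gave 3 to 6 lower. Il2rg, the common γ chain that pairs with the products of both Il7r and Il2ra, fell 3.90-fold (214 ± 20.3 against 723 ± 45.7 CPM, edgeR adjusted p = 2.65e-07), and its kinase gene Jak3 fell 2.08-fold (edgeR adjusted p = 1.01e-05). Jak1 rose 1.38-fold and Myd88, the adaptor of the IL-1 receptor family, fell 1.49-fold, and neither was called against a 1.5-fold change. The partners of the member receptors are given whatever their p. Il2rb, the β chain beside Il2ra, rose 2.81-fold (edgeR adjusted p = 0.00177) and Il1rap, the co-receptor of ST2, 1.65-fold (edgeR adjusted p = 0.00998, lost with the transcript length trend removed and, at 0.209, against a 1.5-fold change). Crlf2, which pairs with Il7r in the TSLP receptor, was at 58.9 ± 6.65 and 58.5 ± 4.07 CPM and was not called (edgeR adjusted p = 0.152, but 0.0315 and lower in ICI libraries without ICI replicate 1). Il17ra, the partner of Il17rb, was at 157 ± 23.8 and 168 ± 17.5 CPM (edgeR adjusted p = 0.0497), which was under the threshold, while 14 of the 19 other settings did not call it (adjusted p from 0.00618 to 1.00).

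Of 9 receptors and signalling genes for the products of ILC2, 8 were tested, and 2 were called higher, 3 lower and 3 not. Egfr, the receptor for amphiregulin, had 739, 569 and 648 counts in ICI libraries and 1, 0 and 7 in isotype libraries, a 255-fold rise (edgeR adjusted p = 1.70e-07) that was 1058-fold without isotype replicate 3. The ligand gene Areg and its receptor gene Egfr were thus both higher in the ICI libraries. Il5ra, the IL-5 receptor chain of eosinophils and some B cells, named after its values were seen, rose 39.7-fold (edgeR adjusted p = 0.000686; 23.3-fold without ICI replicate 3). Csf2rb, the β chain shared by the receptors for IL-5, IL-3 and GM-CSF, fell 2.78-fold (edgeR adjusted p = 2.32e-06). The related β chain gene Csf2rb2, whose product is not shared by all 3 receptors, fell 3.45-fold (edgeR adjusted p = 5.69e-07). Il4ra, the chain that receives IL-4 and IL-13, fell 1.83-fold (377 ± 10.6 against 599 ± 57.8 CPM, edgeR adjusted p = 3.19e-05). Il13ra2, the decoy receptor, had 0 counts in every library.

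Of 14 tested macrophage genes that IL-4 and IL-13 are known to induce, 8 were called higher in ICI libraries, 5 lower and 1 not (7 to 8 higher and 5 to 6 lower when any library was left out). Calls in both directions were also common over all genes tested (35.0% higher, 33.9% lower). Mrc1, the mannose receptor gene, rose 21.0-fold (edgeR adjusted p = 2.31e-07), and Retnla, which encodes RELMα, 469-fold (386 ± 89.0 against 0.698 ± 0.272 CPM, edgeR adjusted p = 7.07e-07). Pdcd1lg2, a PD-1 ligand gene, fell 48.8-fold (edgeR adjusted p = 3.92e-09) and Tgm2, the tissue transglutaminase gene, 14.3-fold (edgeR adjusted p = 3.94e-07). Mrc1 also stands in the list of resident macrophage markers, and that list was higher as a whole: 8 of 8 genes rose, with a summed level of 8761 to 9982 CPM in ICI libraries and 252 to 324 CPM in isotype libraries. Chil3, in this list and among the monocyte markers, fell 40.3-fold.

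The summed levels of markers of the cells that share the 10 genes moved with the groups. The mast cell markers summed to 147 to 227 CPM in ICI libraries and to 81.1 to 87.2 CPM in isotype libraries, and 9 of 10 tested genes rose. Most of that sum was Hdc (119 ± 10.0 against 67.1 ± 10.7 CPM, 1.53-fold higher, not called against a 1.5-fold change) and Kit (20.0 ± 5.73 against 15.5 ± 4.97 CPM, not called, edgeR adjusted p = 0.579), which other leukocytes make too. Cpa3, the mast cell carboxypeptidase gene, had 68, 118 and 296 counts in ICI libraries and 2, 1 and 27 in isotype libraries (17.5-fold higher, edgeR adjusted p = 0.0129, lost at 0.0518 without the filter on low counts; 10.0-fold without ICI replicate 3 and 101-fold without isotype replicate 3). The 4 regulatory T cell genes that rose, of 6 tested, include Il2ra itself, the list summed to 17.1 to 24.9 CPM in ICI libraries and 8.35 to 11.0 CPM in isotype libraries, and Foxp3, its defining gene, had 2, 7 and 2 counts against 4, 9 and 6. T cell markers summed to 20.0 to 39.5 CPM against 3.41 to 6.38 CPM, most of it Cd4 (14.3 ± 4.77 CPM) and Cd28 (8.75 ± 3.73 CPM), with 3 of 7 tested genes higher and 1 lower. Genes of the T cell antigen receptor complex did not go 1 way. Cd3e had 14, 7 and 13 counts against 11, 4 and 17. Cd3g had 25, 14 and 23 against 4, 6 and 12 (3.03-fold higher, edgeR adjusted p = 0.0105, lost at 0.0547 without isotype replicate 1). Trac, the 1 called lower, had 6, 5 and 8 against 21, 11 and 17 (2.34-fold, edgeR adjusted p = 0.0261, lost with DESeq2 at 0.113 and in other settings).

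NK and group 1 ILC markers rose in 11 of 13 cases and fell in 1, Klrk1 (5.95-fold), whose level made the list's sum lower in ICI libraries (134 to 209 CPM) than in isotype libraries (234 to 241 CPM). Dendritic cell markers summed to 331 to 482 CPM against 55.4 to 96.2 CPM (7 of 8 higher, 1 lower), fibroblast markers to 62.4 to 197 CPM against 10.7 to 14.5 CPM (6 of 7 higher), and B cell markers to 240.5 to 804 CPM against 11.9 to 22.8 CPM (7 of 7 higher). In the dendritic cell list Ccr7 (155 ± 76.2 against 25.2 ± 9.92 CPM) and Cd209a (149 ± 29.6 against 0.0731 ± 0.0644 CPM) had the highest levels. The 1 lower was Clec9a (2.59-fold, edgeR adjusted p = 0.000500). Eosinophil markers summed to 45.8 to 68.0 CPM against 16.3 to 19.1 CPM (3 of 4 higher) and basophil markers to 2.19 to 5.48 CPM against 0.0811 to 0.325 CPM (2 of 2 higher). Ear2 had the highest level of the eosinophil list (32.2 ± 4.70 against 11.7 ± 0.421 CPM). Epx had 0, 0 and 6 counts against 0, 0 and 0, and Prg2 4, 0 and 12 against 7, 3 and 3. Neither passed the filter. Both tested basophil genes, Fcer1a and Gata2, also stand in the mast cell list. Mcpt8 had 0, 1 and 4 counts against 1, 0 and 0, and Prss34 0, 10 and 4 against 0, 0 and 4, both below the filter. Group 3 ILC markers summed to 1.27 to 2.74 CPM against 0.135 to 0.325 CPM, a ratio of means of 7.56 (1 of 1 higher), and γδ T cell markers to 1.73 to 3.03 CPM against 0.163 to 0.372 CPM, a ratio of 10.0 (2 of 2 higher). Monocyte markers were lower in ICI libraries (555 to 842 CPM against 4002 to 8447 CPM, 6 of 6 lower). In CPM, neutrophil (278 to 352 against 189 to 255 CPM, 3 of 6 higher and 1 lower), endothelial (34.8 to 47.5 against 21.9 to 31.5 CPM, 5 of 7 higher) and cardiomyocyte markers (32.2 to 40.3 against 4.75 to 12.0 CPM, 6 of 6 higher) separated the groups too. These sums use library totals, while the calls use TMM scaling factors (1.05 to 1.11 in ICI libraries, 0.921 to 0.952 in isotype libraries). The sums were not computed with TMM factors, so the narrow gaps of the neutrophil and endothelial lists are given for library totals only. The part of these cells in the differences of the 10 genes was not tested.

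**Figure D4:**
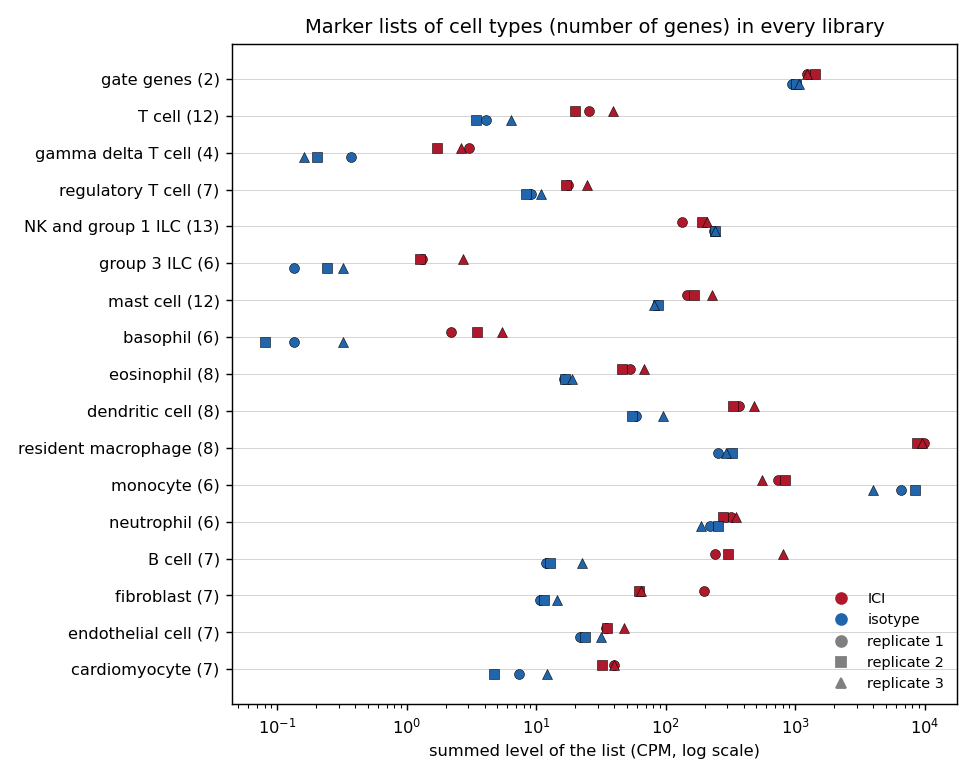
Summed level (CPM, log axis) of 17 marker lists in every library; colour gives the group and the symbol the replicate. Scaled by library totals, all lists but those of monocytes and of NK and group 1 ILC are higher in the 3 ICI libraries. The lists of T cells, mast cells and B cells are highest in ICI replicate 3.

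Within the ICI group the genes did not keep 1 order of libraries. Replicate 3 had 2.47 times the mean of the other ICI libraries for Gata3 and 1.94 times for Klrg1. It had 2.96 times their mean for the B cell list, 1.93 times for basophils, 1.73 times for T cells and 1.46 times for mast cells, and 0.503 times for fibroblasts. Most of the mast cell sum was Hdc and Kit. The other genes of that list ran from 1.17 times (Fcer1a) to 3.45 times (Cpa3), with Tpsb2 at 3.17 times. Il1rl1 and Areg (both 1.24 times), Rora and Il7r (both 1.06 times) were nearer to the other libraries, and Il2ra was lower there (0.730 times). Il1rl1 was lowest in ICI replicate 2, as were the lists of resident macrophages, dendritic cells, eosinophils, neutrophils, T cells, γδ T cells, regulatory T cells, group 3 ILC, fibroblasts and cardiomyocytes. The mast cell, basophil, B cell, NK and endothelial lists were lowest in replicate 1 and the monocyte list in replicate 3. In replicate 1 the fibroblast list was highest, at 3.08 times the mean of the other ICI libraries. In isotype libraries all tested genes but Il7r were highest in replicate 3: Il2ra (2.62 times), Il1rl1 (2.26 times), Areg (1.70 times), Klrg1 (1.53 times), Rora (1.46 times) and Gata3 (1.06 times). Il7r was lowest there (0.794 times). That library also had the highest sums of its group for basophils (3.01 times), cardiomyocytes (1.97 times), B cells (1.84 times), group 3 ILC (1.72 times), T cells (1.70 times) and dendritic cells (1.67 times), among others. The mast cell sum was 0.938 times there, while the mast cell genes Cpa3 and Tpsb2 were 16.2 and 24.7 times the mean of the other isotype libraries. Replicate 3 of each group carried more Xist than Y-linked counts (2786 against 6 for ICI, 1844 against 130 for isotype), the other 4 libraries the reverse.

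**Figure D5:**
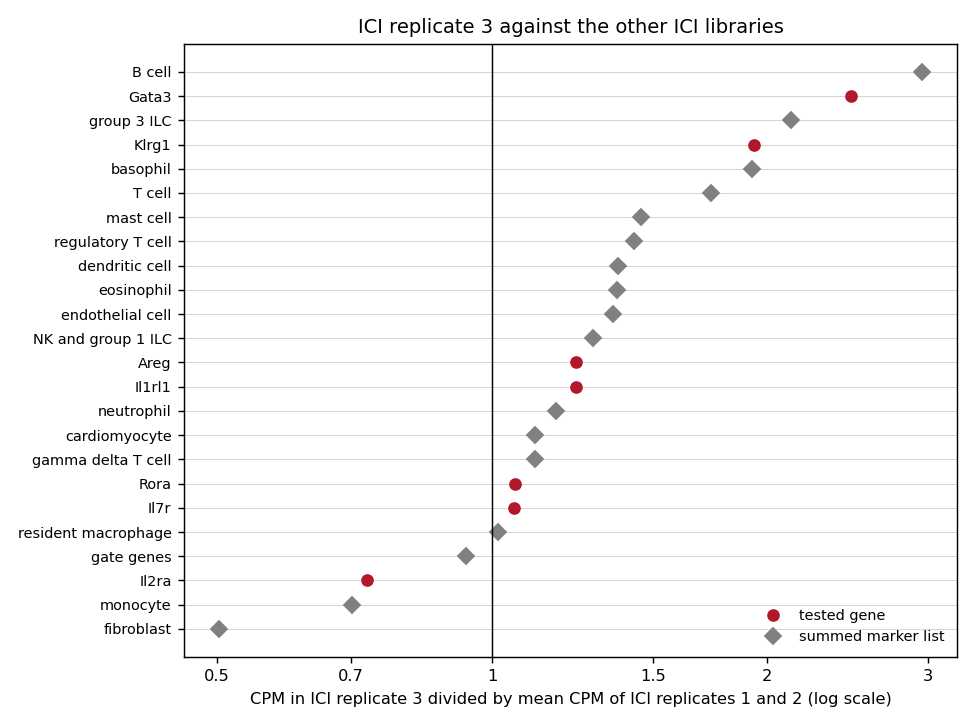
Level in ICI replicate 3 divided by the mean of ICI replicates 1 and 2 (log axis) for the 7 tested genes and 17 summed marker lists. Gata3 (2.47) and Klrg1 (1.94) lie between the T cell (1.73) and B cell (2.96) lists and above the NK and group 1 ILC list (1.29). Il1rl1 and Areg lie at 1.24, and Il2ra at 0.730.

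Each tested gene was also set beside the marker genes of the other cell types by the root mean square distance of centred log2 CPM over the 6 libraries, a measure that the difference between the groups dominates. Of 98 markers compared, the closest was Folr2, a resident macrophage receptor gene, for Il1rl1 (distance 0.29), the cardiomyocyte gene Tnni3 for Rora (0.18), and the NK cell genes Klrd1 for Klrg1 (0.33) and Klrk1 for Il7r (0.43). Klrk1 was the 1 gene of its list called lower in ICI libraries, where 11 of 13 were called higher. Tbx21, the factor of NK and type 1 lymphocytes, was closest to Gata3 (0.23), and the chemokine receptor gene Ccr7 of migrating dendritic cells to Areg (0.39). For Il2ra, compared with 93 markers, it was Fscn1, also a gene of migrating dendritic cells (0.36). These distances describe 6 libraries in 2 groups and nothing more.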

How the data were processed

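The authors deposited 1 table of raw read counts per gene for all 6 libraries (whole numbers, from 21528274 to 30736316 per library). Non-directional SMART-seq V4 libraries were made from sorted heart cells, per the labels' protocols, so reads of overlapping antisense genes cannot be told apart. STAR 2.7.10a, Salmon 1.10.1 and the GRCm39 build are named, per the submitters' processing notes, without their roles. From these counts, groups of 3 libraries each were compared with edgeR 4.0.16 in R 4.3.3 (TMM factors, quasi-likelihood test, Benjamini-Hochberg adjustment over all genes tested). Genes passed filterByExpr with a minimum count of 10, and a call is an adjusted p under 0.05. CPM is the count per 1e6 counts of the library. Gene symbols were matched for 52029 of 57010 identifiers (91.3%), and exon lengths are from GENCODE on GRCm38. Intervals and zero limits (3 counts) cover counting error only, since reads carry no molecular identifiers. The libraries are labelled biological replicates with 1 batch date. Replicates differed by 13.8 to 37.4 chi-square units per degree of freedom, more than sampling noise. Scripts were tested on simulated data. The 10 genes and all lists were chosen with earlier results of these data known, so no test over a list is given. Besides the 10 genes, those named by rule include up to 4 tested genes per pathway list with the smallest p, and genes at 0 in every library. The rule also takes up to 3 genes per marker list with the highest mean CPM and the closest marker of each gene. Ptprc, Thy1, Il33, Tslp, Il25, Foxp3 and Cpa3 are always named. Receptor partners of the 10 genes, Nmur1 and Cd3e are named outside this rule. So are Il4, Il9r, Il5ra, Cd3g, Trac, Clec9a, Mcpt8, Prss34, Epx and Prg2, which were picked after their values were seen. Alternatives were DESeq2 1.42.0, limma 3.58.1 (voom), other scaling factors and filters, a replicate block, a term for the libraries rich in Xist, thinning, removal of the transcript length trend, a 1.5-fold threshold and leaving out libraries.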

Additional observations from a re-analysis of the deposited data

How the results depend on the processing

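Among 131 results of a tested gene of the 10 under an alternative, 127 kept their direction and their side of the threshold, and 4, all of Gata3, moved past it with the same direction. None of the 131 reversed. Of 6 other named genes that were not called, the log2 fold change turned for Il18 (0.15), Crlf2 (0.085), Kit (-0.029) and Ptprc (-0.25, adjusted p = 0.0391) with the transcript length trend removed, for Crlf2 with library totals alone (0.011), for Kit without ICI replicate 3 (-0.053, in a range up to 0.42 when 1 library was left out) and for Cd3e without isotype replicate 2 (-0.090, in a range up to 0.61). Ptprc was called higher with upper-quartile factors, library totals alone and the strict filter (adjusted p = 0.0102, 0.00551 and 0.0449). Between 5 and 7 of the 10 genes were called over the 19 alternatives, and 6 to 7 when 1 library was left out. The strict filter (50 counts in 3 libraries) removed Gata3 and Klrg1 from the test. Over all genes, 10040 were called, 9124 to 9938 with 1 library left out, and 5520 against a 1.5-fold change (3110 higher, 2410 lower), a stricter test by construction. Other alternatives gave 8258 to 11023. The share of calls that were higher was 50.8% with TMM factors, 61.5% with upper-quartile factors and 62.7% with library totals alone, and the log2 fold change of the median gene moved from 0.03 to 0.21 and 0.23. With the replicate number as a block 9991 genes and 6 of the 10 were called. Same-numbered libraries correlated at 0.03, 0.06 and 0.13 in their deviations, and ICI replicate 2 correlated best with isotype replicate 1 (0.09), so the numbers were not taken as pairs. Depth limits Il5, Il13 and Il17rb, which had at most 8 counts in any library.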
